A study of Populus trichocarpa and Populus tremula x Populus alba with 22 samples.

Results

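Of 42950 poplar genes measured, 23 (0.0536%) were higher in young leaves of Fe-deprived plants and lower in leaves of plants overexpressing PtrbHLH011, with an absolute log2 ratio below 1 in the 3rd internode of the Fe-deprived plants. They were chosen on these same values. In each table, L was the log2 of the ratio of the case mean plus 1 to the control mean plus 1. The choice asked for L of at least 1 in young leaf and L of -1 or lower in overexpression leaf. In each leaf table the groups' values had to lie apart and average 50 or more. In the internode the absolute L had to be below 1. The values in young leaf, overexpression leaf and internode are therefore a description, given with no test. The stem of the overexpression plants was not used for the choice and was tested.

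Fe is a cofactor of heme proteins, of Fe-S clusters and of enzymes on the path to chlorophyll, and leaves need much of it for photosynthetic electron transport. Fe moves poorly out of older leaves, so that a shortage yellows the youngest leaves first. Basic helix-loop-helix (bHLH) transcription factors control much of the Fe-deficiency response, and in Arabidopsis bHLH11 is known as a negative regulator of it. PtrbHLH011 is the poplar gene that the study named and overexpressed. The study asked what Fe deprivation changes above ground and what part this factor has in it. The 23 genes are some of those that went opposite ways in leaf, higher under Fe deprivation and lower with overexpression.

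The Fe experiment used Populus trichocarpa kept in hydroponics with 0 µM Fe for 21 days, set against plants with 10 µM Fe. Young leaf and 3rd internode came from the same 6 plants, with 3 libraries per tissue and Fe level. Replicate numbers of Fe-deprived plants differ between the tissues. Young-leaf replicates 1, 2 and 3 share plants with internode replicates 3, 1 and 2. The other experiment used 4-month-old Populus tremula x Populus alba hybrids that overexpressed PtrbHLH011, set against hybrids carrying the empty vector. It had 3 libraries per genotype from leaf and 2 per genotype from stem. The overexpression libraries share a single name stem, and so do the empty-vector libraries. Neither the number of independent transgenic lines nor the promoter is given in the sources used here. If each genotype is a single line, line and construct cannot be told apart. The experiments differed in species, growth, RNA kit and sequencing platform, and these cannot be told apart in any level set across them.

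The depth was 26620695 to 68689878 reads per library. The 10 most abundant genes took 6.59% ± 0.403 of the reads in Fe-deprived and 9.45% ± 0.615 in Fe-sufficient young leaves (SD, n = 3 each). They took 4.57% ± 0.726 in overexpression and 7.48% ± 0.476 in empty-vector leaves (SD, n = 3 each), and 4.95% ± 0.0368 in overexpression and 7.02% ± 0.259 in empty-vector stems (SD, n = 2 each). The part of this shift in the results was not tested. When the choice was repeated on CPM (recovered reads scaled to the library total) it gave 23 genes, of which 19 were among the 23 described here. The genes are named by ID with no function given, because the tables hold no gene names and the reference table matched 0 of the IDs. PtrbHLH011 itself and the markers of leaf and stem cells were therefore not used to check the labels. In such bulk libraries fewer cells of a type and less RNA per cell cannot be told apart.

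The choice was narrow. The young-leaf condition alone was met by 918 of 24590 genes with a mean of at least 50 (3.73%), and the overexpression-leaf condition by 774 of 22472 (3.44%). Both were met by 26 genes. Whether this number differs from the overlap of unrelated lists of these sizes was not tested. The internode condition removed 3 of these, with L of -1.71, 1.13 and 1.90 in the internode. The same limits gave 86 genes higher in both leaf comparisons, 68 lower in both, and 116 lower under Fe deprivation and higher with overexpression. At the edges, the lowest young-leaf L inside the choice was 1.00 and the nearest outside 0.98. In overexpression leaf the nearest values were -1.004 inside and -0.99 outside. In the internode the largest absolute L kept was 0.93 and the smallest left out 1.13. The lowest mean in the overexpression leaf table was 60.7 inside and the nearest outside was 42.2. In the young-leaf table these were 156 and 31.2.

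In young leaf most of the 23 genes were close to the limit. The median L was 1.33, against 0.01 over the 24590 genes with a mean of at least 50. L was under 1.5 in 17 genes and at least 2 in 2 genes. In overexpression leaf the median L was -1.61, against -0.01 over the 22472 genes. There L was under 1.5 in size in 8 genes and at least 2 in size in 9 genes. The difference in overexpression leaf was larger in size than that in young leaf in 14 of the 23 genes.

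**Figure D1:**
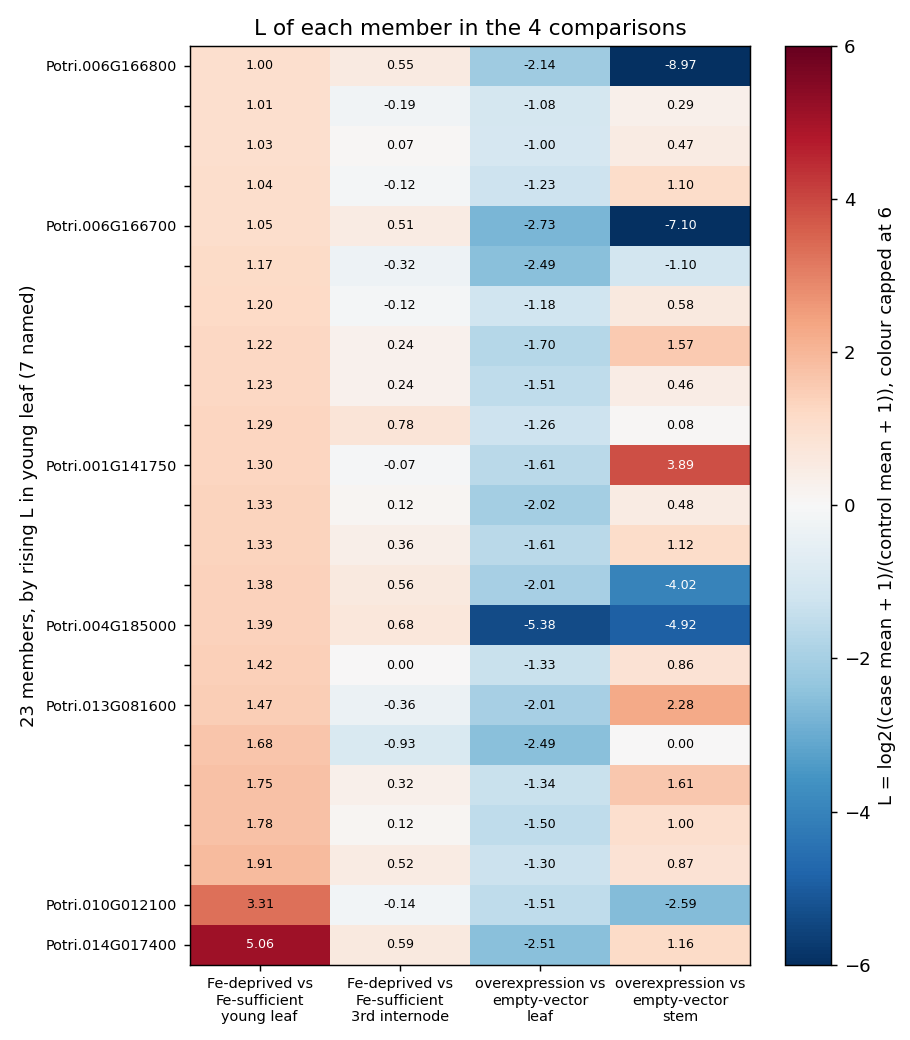
L (log2 of the ratio of group means, each plus 1) of the 23 genes in young leaf and 3rd internode (Fe-deprived over Fe-sufficient) and in leaf and stem (PtrbHLH011 overexpression over empty vector). Young-leaf values run from 1.00 to 5.06 and overexpression-leaf values from -5.38 to -1.004, both by choice. The stem column, not used for the choice, holds values on both sides of 0.

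Potri.014G017400 had the largest young-leaf difference. Its deposited values, which are per-gene counts scaled by the library's size factor, were 289.5, 810.8 and 196.6 in Fe-deprived young leaves, against 19.1, 8.13 and 8.64 in Fe-sufficient young leaves. The groups were far apart, with L of 5.06. Fe-deprived replicate 2 was several times higher than the other Fe-deprived libraries. In the leaves of the hybrid it had 4.76, 22.4 and 25.2 with overexpression, against 124.3, 41.7 and 145.7 with the empty vector. The L was -2.51, and empty-vector replicate 2 lay nearest to the overexpression leaves.

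Potri.010G012100 came next in young leaf, with 3337, 6410 and 2444 in Fe-deprived plants, against 141.7, 672.4 and 409.9 in Fe-sufficient plants. The lowest Fe-deprived value was well above the highest Fe-sufficient one, and L was 3.31. In overexpression leaf it had 53.3, 27.3 and 88.7, against 198.3, 144.3 and 143.5 in empty-vector leaf (L of -1.51).

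Potri.004G185000 had the largest difference in overexpression leaf. It had 20.9, 25.3 and 3.73 there, against 425.3, 1080 and 699.1 in empty-vector leaf. No overexpression library came near the empty-vector range, and L was -5.38. In young leaf it had 1455, 964.0 and 1366 in Fe-deprived plants, against 380.8, 540.0 and 524.7 in Fe-sufficient plants (L of 1.39). The internode held almost none of it, with 6.45, 0 and 4.62 in Fe-deprived plants, against 0, 5.77 and 0 in Fe-sufficient plants.

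Potri.006G166700 was the other gene named for its overexpression-leaf difference. It had 0, 34.1 and 17.7 in overexpression leaf, against 118.1, 146.4 and 95.7 in empty-vector leaf (L of -2.73). In young leaf it was near the limit, with 50471, 61322 and 83825 in Fe-deprived plants, against 38857, 36700 and 18746 in Fe-sufficient plants (L of 1.05). The spread within each young-leaf group was wide, and the highest Fe-sufficient library came close to the lowest Fe-deprived one.

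**Figure D2:**
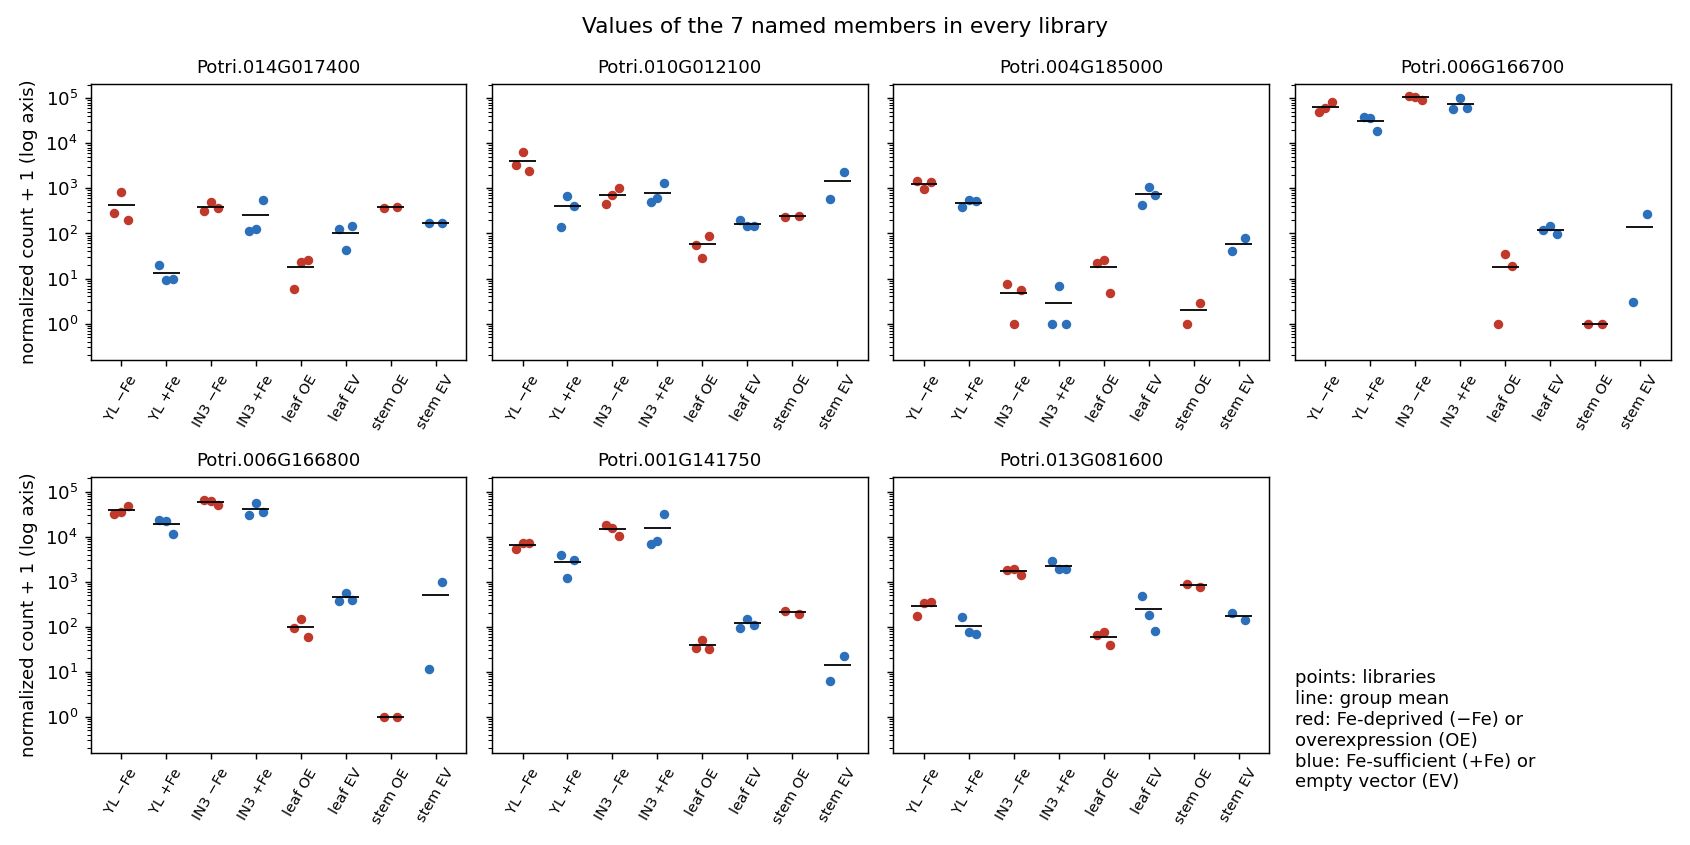
Size-factor-scaled gene counts plus 1 (log axis) of the 7 named genes in each library (points) with the group mean (line), for young leaf (YL) and 3rd internode (IN3) without (−Fe) and with Fe (+Fe) and for overexpression (OE) and empty-vector (EV) leaf and stem. In both leaf comparisons the groups do not overlap, by choice, while in stem Potri.001G141750 and Potri.013G081600 are higher and Potri.004G185000 and Potri.006G166800 lower with overexpression.

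Over the 23 genes the distance between the groups was often small. In young leaf the lowest Fe-deprived value was 1.00 to 10.3 times the highest Fe-sufficient value, with a median of 1.35, and it was under 1.1 times in 4 genes. In leaf of the hybrid the lowest empty-vector value was 1.05 to 16.8 times the highest overexpression value, with a median of 1.96, and it was under 1.1 times in 1 gene. It was at least 2 times in 4 genes in young leaf and in 11 genes in leaf of the hybrid.

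The libraries of a group did not contribute equally. The median deviation of the 23 genes from the Fe-sufficient mean, in log2, was 0.76, 1.29 and 1.46 in Fe-deprived young leaf replicates 1, 2 and 3, against 0.19, 0.04 and -0.25 in the Fe-sufficient replicates. Fe-deprived replicate 1 was the lowest of its group in 15 of 23 genes, against 41.5% of the 918 genes that met the young-leaf condition. Replicate 3 was the highest in 14 genes, against 30.3% of the 918. Without Fe-deprived replicate 1 the same limits gave 38 genes, 21 of them among the 23. In overexpression leaf the median deviation from the empty-vector mean was -1.63, -1.45 and -1.90, against 0.08, -0.12 and -0.03 in the empty-vector leaves. The 3 overexpression libraries lay closer together than the 3 Fe-deprived ones.

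**Figure D3:**
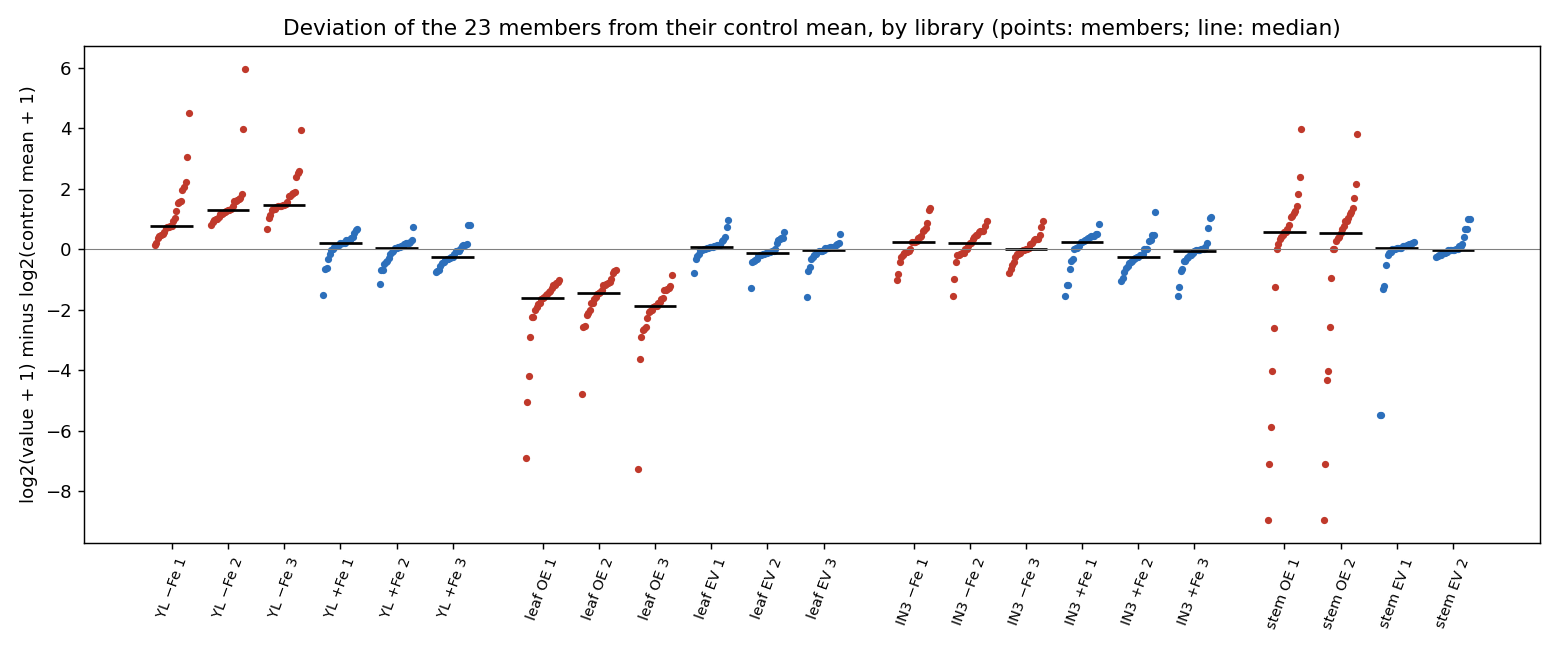
Log2 deviation of each of the 23 genes (points) and their median (line) from the mean of the Fe-sufficient (+Fe) or empty-vector (EV) libraries of the same table, by library, for young leaf (YL), leaf, 3rd internode (IN3) and stem. The medians of Fe-deprived (−Fe) young leaves lie at 0.76 to 1.46, those of overexpression (OE) leaves at -1.90 to -1.45, and those of both overexpression stems above the empty-vector stems.

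The 23 genes together took 0.448%, 0.536% and 0.622% of the reads in Fe-deprived young leaf, against 0.246%, 0.212% and 0.155% in Fe-sufficient young leaf. In overexpression leaf they took 0.146%, 0.164% and 0.124%, against 0.338%, 0.303% and 0.315% in empty-vector leaf. These shares follow from the choice of the genes.

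In the 3rd internode, 21 of the 23 genes had a mean of at least 50. The choice required an absolute L below 1 there, which 88.5% of the 25389 genes with such a mean met. The median L was 0.12, against -0.03 over all those genes. Of the 21 genes, 3 were higher in Fe-deprived internodes without overlap and 0 were lower, against 14.4% and 13.4% of the 25389 genes. By library, the median deviation was 0.25, 0.21 and 0.00 in Fe-deprived internodes, against 0.22, -0.25 and -0.06 in Fe-sufficient ones, and the libraries of both groups overlapped. Potri.010G012100 had 452.8, 699.5 and 1007 in Fe-deprived internodes, against 497.5, 597.6 and 1287 in Fe-sufficient ones, and the groups overlapped. Potri.014G017400, the gene with the largest young-leaf L, had an internode L of 0.59, with 313.8, 503.3 and 362.1 in Fe-deprived plants, against 114.8, 125.1 and 544.9 in Fe-sufficient plants. Fe-sufficient replicate 3 exceeded every Fe-deprived library and the other Fe-sufficient libraries did not.

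Many of the 23 genes were higher in leaf than in stem in the hybrid. The choice favoured this, since it set a lowest mean in leaf and none in stem. The share over all genes was not computed. For each gene the level in one organ was divided by that in the other, as CPM plus 0.1. In empty-vector plants 16 genes were at least 5 times higher in leaf than in stem, against 50.9% of the 774 genes that met the overexpression-leaf condition, and 1 gene was at least 5 times lower. The median ratio was 10.2 for the 23 genes and 5.41 for the 774. In overexpression plants the median leaf-to-stem ratio of the 23 genes was 4.86, and the leaf part of this shift was fixed by the choice. In the Fe experiment the control plants had lower median ratios, both for the 23 genes and for the genes that met the leaf condition. In Fe-sufficient plants 2 genes were at least 5 times higher in young leaf than in internode and 4 at least 5 times lower, against 6.54% and 19.2% of the 918 genes that met the young-leaf condition. The median young-leaf-to-internode ratio of the 23 genes was 4.21 in Fe-deprived and 1.74 in Fe-sufficient plants, the shift being fixed by the choice in young leaf. For the 918 genes the median in Fe-sufficient plants was 0.51.

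**Figure D4:**
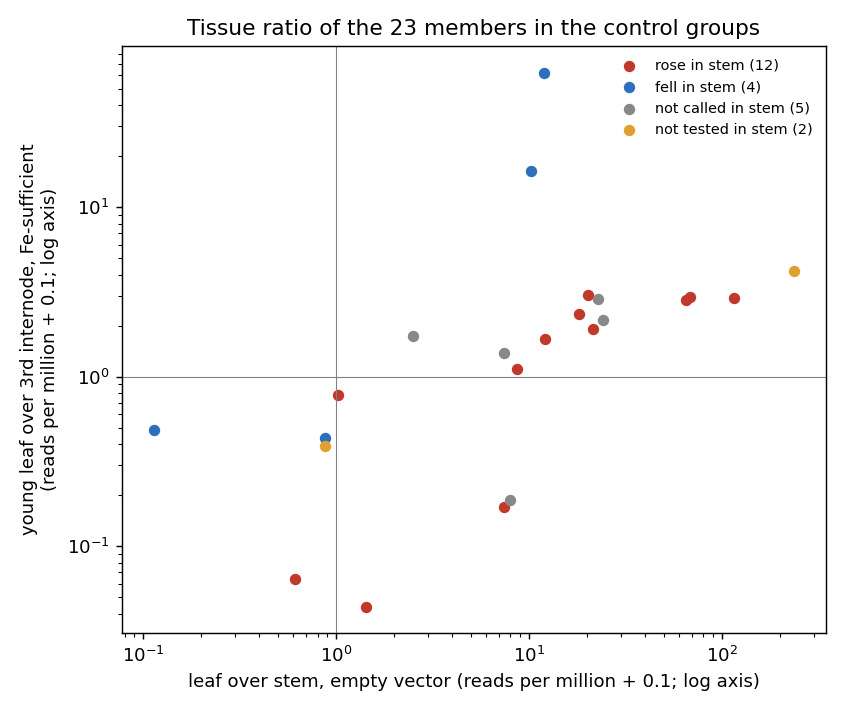
Young-leaf-to-internode ratio in Fe-sufficient plants (vertical log axis) against leaf-to-stem ratio in empty-vector plants (horizontal log axis) for the 23 genes, both from CPM plus 0.1, coloured by the limma call in overexpression stem. 16 genes lie at 5 or more on the horizontal axis and 2 on the vertical axis, and genes that rose in stem (12) lie on both sides of 1 on the vertical axis.

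The leaf levels of some genes differed between the 2 experiments, in values that the choice also used. Potri.006G166700 averaged 567.0 ± 213.3 CPM in Fe-sufficient young leaf and 3.98 ± 0.927 in empty-vector leaf (SD, n = 3 each). Potri.014G017400 ran the other way, with 0.216 ± 0.118 in Fe-sufficient young leaf and 3.42 ± 1.76 in empty-vector leaf (SD, n = 3 each). The tables hold hybrid reads under Populus trichocarpa gene IDs, and how well those reads map was not tested.

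The stem of the overexpression plants gave a mixed picture that leaned the opposite way to the leaf. Of the 23 genes, 21 were tested in stem with limma on log2 of the value plus 1, with Benjamini-Hochberg adjustment over all 24810 genes tested. At an adjusted p under 0.05, 12 rose (57.1% of the 21), 4 fell (19%) and 5 were not called. Over all genes tested 20% rose and 17.2% fell. Of the 774 genes that met the overexpression-leaf condition, 651 were tested in stem, and 43.6% rose and 13.7% fell. The share of the 21 genes that rose was nearer to that of these 651 than to that of all genes, and whether it differs from the 651 was not tested. The median stem log2 fold change was 0.58 for the 21 genes, 0.55 for the 651 and -0.00 for all genes.

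The filter asked for a value of at least 10 in 2 libraries. Of the 21 genes, 16 reached 10 in every stem library, and 11 of these rose and 1 fell. Another 4 reached 10 in the empty-vector stems only, and 3 of these fell. The remaining gene, Potri.001G141750, passed through the overexpression stems, with 1 empty-vector stem under 10. The 4 genes that reached 10 in the empty-vector stems only had to be higher there. For Potri.001G141750, with the other empty-vector stem above 10, the filter favoured a rise without forcing it. Of the untested genes, 1 had 0 reads in all 4 stem libraries, and the other was Potri.006G166700. Without a test, 18 of the 23 genes had a stem mean of at least 50, and 14 of them were higher with overexpression without overlap and 3 lower. Over the 20288 genes with such a mean 39.8% were higher and 37.5% lower without overlap.

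**Figure D5:**
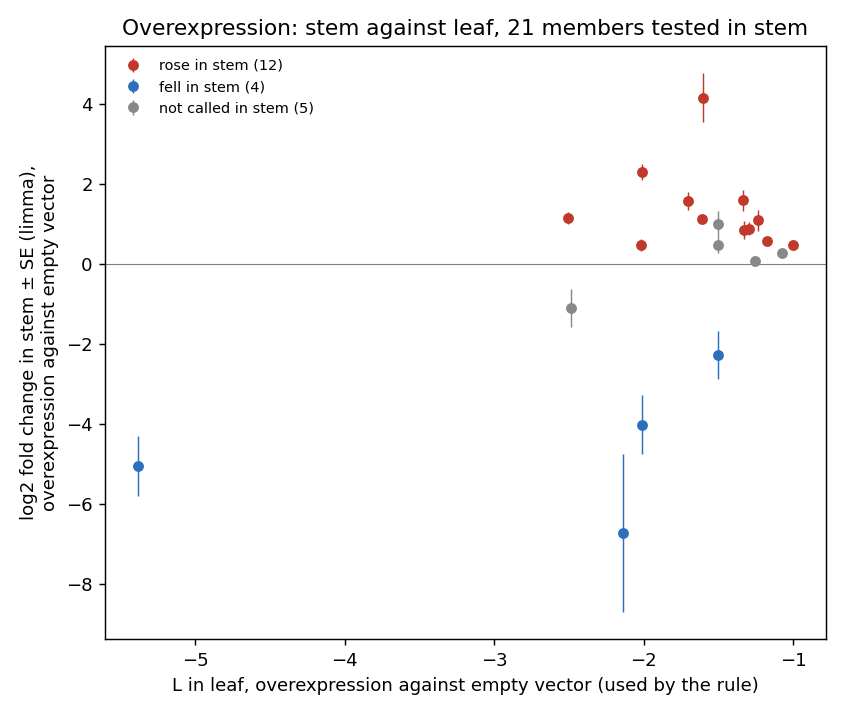
Log2 fold change in overexpression stem (limma, vertical axis) against L in overexpression leaf (horizontal axis) for the 21 of 23 genes tested in stem, with bars for the SE. All 21 lie at -1 or lower in leaf by choice, with 12 called as rising and 4 as falling in stem.

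Among the 12 genes that rose in stem, log2 fold changes ran from 0.47 to 4.16, and 7 were at least 1. Potri.001G141750 had 221.9 and 195.5 in overexpression stem, against 5.13 and 21.2 in empty-vector stem. It rose by 4.16 ± 0.62 in log2 (SE), with an adjusted p of 0.00598 from limma, and by 3.24 without empty-vector replicate 1 or 5.09 without replicate 2. Because it passed the filter through the overexpression stems, the filter favoured a rise. The same gene had 32.4, 50.6 and 30.8 in overexpression leaf, against 92.5, 150.4 and 109.8 in empty-vector leaf (L of -1.61). Its leaf-to-stem ratio was 0.211 in overexpression plants, against 7.37 in empty-vector plants, the leaf part of this shift being fixed by the choice.

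Potri.013G081600 had 906.3 and 773.2 in overexpression stem, against 202.0 and 141.4 in empty-vector stem. It rose by 2.30 ± 0.20 in log2 (SE, limma adjusted p of 0.00187). In leaf it had 63.8, 75.9 and 38.3 with overexpression, against 468.5, 179.9 and 79.4 with the empty vector. The empty-vector leaves were spread widely, and replicate 3 lay just above the highest overexpression leaf. Potri.014G017400 also rose in stem, with 366.5 and 395.7 in overexpression plants, against 173.3 and 167.7 in empty-vector plants (log2 1.16 ± 0.14 SE, limma adjusted p of 0.00373).

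Of the 4 genes that fell in stem, 3 were under 10 in both overexpression stems, and the size of their fold changes depends on the pseudocount. These 3 passed the filter through the empty-vector stems only, so the filter favoured a fall. Potri.004G185000 had 0 and 1.93 in overexpression stem, against 40.0 and 76.8 in empty-vector stem. It fell by 5.04 ± 0.74 in log2 (SE, limma adjusted p of 0.00591). With so few reads in overexpression stem the pseudocount sets this size, and the log2 fold change was -6.95 with a pseudocount of 0.1 and -3.37 with 5, called at both. Without empty-vector replicate 1 the adjusted p was 0.0508. Potri.010G012100 had 233.7 and 240.7 in overexpression stem, against 571.1 and 2305 in empty-vector stem. It fell by 2.27 ± 0.61 in log2 (SE, limma adjusted p of 0.0332). Its log2 fold change was -3.28 without empty-vector replicate 1 and -1.26 without replicate 2. When no filter was applied, Potri.010G012100 was not called (limma adjusted p of 0.0712).

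Potri.006G166800 had 0 in both overexpression stems, against 10.3 and 991.9 in the empty-vector stems. The group means put it at least 171-fold lower, taking 3 reads in each overexpression library as the floor. That bound rests on empty-vector replicate 2, and replicate 1 alone gives at least 3.5-fold. The limma call had an adjusted p of 0.0444 and rested on widely separated empty-vector libraries, the log2 fold change being -9.96 without replicate 1 and -3.49 without replicate 2. It was not called when no filter was applied (adjusted p of 0.0877) or with a pseudocount of 5 (0.091), and DESeq2 called it (0.0213). The filter used with edgeR left the gene out, as did a filter of at least 50 in 2 libraries. Potri.006G166700 had 0 in both overexpression stems as well, against 2.05 and 269.7 in empty-vector stems, and it failed the filter. In leaf Potri.006G166800 had 92.4, 148.9 and 58.8 with overexpression, against 379.1, 567.2 and 387.1 with the empty vector (L of -2.14).

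These stem calls rest on 2 libraries per genotype. The labels call them biological replicates but do not state that they came from separate plants. The p-values therefore measure the spread between libraries, and whether that is a spread between plants is not given. Leaving out a stem library leaves 1 library in its group. Calls were then lost, for all genes tested as for the 23 genes, and counts from such fits are not read as support.

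Genes chosen by the same limits in the other directions had other stem counts. Over all genes tested in stem, 20% rose and 17.2% fell. Of the 77 tested genes higher in both leaf comparisons, 22 rose (28.6%) and 11 fell (14.3%) in overexpression stem. Of the 55 lower in both, 7 rose (12.7%) and 17 fell (30.9%). Of those lower under Fe deprivation and higher with overexpression, 7 rose (6.93% of those tested) and 43 fell (42.6%). The comparison between these groups and the 23 genes was not tested.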

How the data were processed

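RNA-seq was done on young leaf and 3rd internode of Populus trichocarpa (12 libraries) and on leaf and stem of Populus tremula x Populus alba (10 libraries), with paired-end reads of 150 bp. Poly(A) selection and Illumina sequencing served the Fe experiment, and strand-specific mRNA libraries on DNBSEQ the overexpression experiment, per the labels' protocols. The deposited unit is a signal for each gene. The values behave as gene counts scaled by a library size factor, and the authors normalized each of the 4 tables of 42950 genes separately. The submitters' processing notes list DESeq2 2.11.40.7, HISAT2 2.2.1 and StringTie 2.2.1 and give no roles. Per the file headers, the young-leaf values are StringTie gene counts. In the sources used here the genome build is not given, and neither is the counting of strand, overlapping genes and near-identical copies, which makes values of such genes uncertain. Dividing each library by its step returned whole numbers within 0.001, called reads here although they may be rounded estimates.

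The members and lists were chosen with earlier results of these data known. Stem values, as log2(deposited value + 1), were fitted with limma 3.58.1 in R 4.3.3, using its trend option. The tests were two-sided, were adjusted by Benjamini-Hochberg over the genes at 10 or more in 2 libraries, and had a threshold of 0.05. Its log2 fold changes come from means of logs, whereas L comes from logs of means, so the values differ, and those of low genes depend on the pseudocount. Alternatives included edgeR 4.0.16 (quasi-likelihood) and DESeq2 1.42.0 on the recovered reads. The fit was tested on simulated data with known changes. Genes named by ID are the 2 with the highest L in young leaf, the 2 with the lowest L in overexpression leaf, and the 2 lowest and 2 highest called log2 fold changes in stem, and any further value belongs to these genes. Lists of pathways and of cell type markers needed gene names, and 0 IDs matched the reference table, so no list was used. Floors from 0 reads cover counting error only, and no replicate pair agreed within sampling noise.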

Additional observations from a re-analysis of the deposited data

Results flagged for a closer look

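Overexpression of PtrbHLH011 went opposite ways in leaf and stem for 15 of the 23 genes, which were lower without overlap in overexpression leaf and higher without overlap in overexpression stem. Of the 774 genes that met the overexpression-leaf condition 53.0% were likewise higher without overlap in overexpression stem, as were 39.8% of all genes with a stem mean of at least 50. The leaf direction was fixed by the choice of the genes, and the difference between the organs was not tested. Potri.001G141750 was lower in overexpression leaf and higher in overexpression stem by a log2 fold change of 4.16, having passed the stem filter through the overexpression stems. Potri.013G081600 did the same with 2.30 in stem, and Potri.014G017400 with 1.16. Groups of 2 or 3 libraries were too small for a check of single outlying libraries.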

How the results depend on the processing

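The number of genes chosen was 23, and it was 4, all among the 23, with a limit of 1.5 on L in the leaf tables. Leaving out each young-leaf, leaf or internode library in turn gave 18 to 38 genes, with 38 found without Fe-deprived young leaf replicate 1. In overexpression stem, 4 genes were called as falling and 12 as rising by limma. With no filter 2 fell and 10 rose, against 3548 and 4337 over all genes. With a value of at least 50 in 2 libraries 1 fell and 12 rose, against 4093 and 4936 over all genes. DESeq2 called 4 as falling and 9 as rising, against 3842 and 4359 over all genes, and edgeR 3 and 12, against 4282 and 4954. For limma the counts over all genes were 4267 falling and 4963 rising. Leaving out each stem library in turn gave 0 to 4 falling and 0 to 9 rising genes, with 0 in both directions without either overexpression library, where limma called 0 genes of the whole table, and 6 rising without empty-vector replicate 1, where 3539 of all genes rose. Each of these fits left 1 library in a group, so their counts are not read as support. With a replicate block for the library number, 4 genes fell and 12 rose, against 4902 and 5472 over all genes. Over 24810 genes, the difference between the 2 empty-vector stems correlated with that between the 2 overexpression stems at 0.069. In the file headers the second libraries of the genotypes carry different numbers. Stems of the 2 genotypes come from different plants, so this value cannot decide whether the numbers pair libraries. The labels do not state a pairing, and the main fit had no block. Among the alternatives for the named genes in stem, 59 values kept the call and 16 lost it, 12 of these without an overexpression library, and 0 changed direction. The edgeR, DESeq2, filter and replicate block settings for named genes were chosen after seeing the data. The cause of these changes was not tested. Recovered totals of at least 26620695 reads a library leave genes of a few reads, such as those at 0 in overexpression stem, with no fold beyond a bound.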

Other observations

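Potri.006G166700 and Potri.006G166800, with consecutive ID numbers, kept a narrow range of ratios in Populus trichocarpa and had lower ratios in the hybrid. The value of Potri.006G166700 was 1.57 to 1.90 times that of Potri.006G166800 in each of the 12 libraries of the Fe experiment. In the hybrid it was 0 to 0.312 times in the 8 libraries that gave a ratio. Whether the IDs are near-identical copies that share reads could not be checked, since no sequence or annotation was used here. These genes were singled out after their values were seen.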
